A study of Caenorhabditis elegans with 24 samples.

Results

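The microRNAs described here are the 5p and 3p arms of the C. elegans hairpins mir-80, mir-81 and mir-82, members of the bantam family. They were taken by name from a table of read counts for 434 mature miRNA arms. Both arms of each hairpin have a row in the table, which gives 6 arms of the 434: cel-miR-80-5p, cel-miR-80-3p, cel-miR-81-5p, cel-miR-81-3p, cel-miR-82-5p and cel-miR-82-3p. The samples were embryos of the strain N2, taken from adult worms that had been cut open and staged by the time since the embryo had 4 cells. The 8 stages were 60, 120 and 180 min, 225 and 270 min, and 330, 410 and 500 min, with 3 libraries of 50 embryos each at every stage and no other treatment or genotype. All cells of the embryo contributed to each library. A higher count can therefore come from more cells that hold a miRNA or from more of it per cell, and these cannot be told apart.

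A miRNA hairpin is cut from a longer transcript in the nucleus, and Dicer then cuts it to a short duplex. One strand of the duplex, the guide, is loaded into an Argonaute protein and pairs with messenger RNAs through the seed at its 5' end, while the other strand is usually degraded. In the bantam family the seed lies on the 3p arm, so miR-81-3p and miR-82-3p are the expected guides and the 5p arms their partner strands. In flies bantam promotes tissue growth and blocks cell death. In worms the family also includes mir-58a, and animals lacking mir-58a, mir-80, mir-81 and mir-82 together are small, lay eggs poorly and fail to form dauer larvae. The 3p arms of mir-81 and mir-82 are nearly identical in sequence, although sequences were not compared here.

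In the WBcel235 annotation, mir-81 and mir-82 lie 4078 bases apart on chromosome X. The mir-81 hairpin, at X:2431072-2431179, is on the plus strand inside an intron of the protein-coding gene gid-2, which runs on the opposite strand. The mir-82 hairpin, at X:2435258-2435354, is on the minus strand inside an intron of the same gene, and on the same strand as gid-2. The mir-80 hairpin lies elsewhere, at III:8865270-8865367 on the minus strand. There 97 of its 98 bases overlap an annotated non-coding RNA, K01F9.6, on the opposite strand. Mature miR-81-3p and miR-82-3p are both 22 bases long in the annotation.

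The libraries held 88482 counts (225 min replicate 2) to 1594151 counts (410 min replicate 3). Levels are given as CPM, counts divided by the library size after TMM scaling and given on the usual CPM scale, and shares as percentages of a library's unscaled counts. Of the 434 arms, 128 had enough counts to be tested, among them 4 of the 6 arms described here. The 2 arms of mir-80 did not pass that filter. All tests between stages are edgeR quasi-likelihood F-tests over the 24 libraries with Benjamini-Hochberg adjustment over the 128 arms and a threshold of 0.05. Nothing in the labels says that the 3 libraries of a stage came from separate cultures, so p-values measure the spread between these samples, which may be partly technical.

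One library stood apart at the first stage. In 60 min replicate 3, miR-81-3p had 2501 counts, against 97 in replicate 1 and 75 in replicate 2. miR-82-3p had 5895 counts in replicate 3, against 989 in replicate 1 and 427 in replicate 2. As a share of the library, miR-81-3p made up 0.677% in replicate 3, 0.0754% in replicate 1 and 0.0756% in replicate 2. The let-7 and lin-4 families rise after hatching and were listed as a mark of the mother's tissue. They made up 0.0863% of replicate 3, 0.00933% of replicate 1 and 0.00605% of replicate 2. They made up 0.0281% to 0.0308% at 180 min and 0.0237% to 0.0497% at 225 min. These values were also above 60 min replicates 1 and 2, but below 60 min replicate 3. At 500 min they made up 0.0073% to 0.0307%, with the lowest library below 60 min replicate 1. Reads were present for 6 of the 14 arms on that list at 60 min. The mir-35 family, which marks the early embryo, differed little, with 5.29% in replicate 3, 4.68% in replicate 1 and 5.09% in replicate 2. The 2 arms on the intestine list made up 0.0555% of replicate 3, 0.0389% of replicate 1 and 0.0101% of replicate 2. The muscle list had 1 count in replicate 3, 0 in replicate 1 and 3 in replicate 2. Other arms named below were also high in replicate 3. miR-49-5p had 194 counts there, against 2 and 3 in replicates 1 and 2, miR-228-5p 1867 against 284 and 100, and miR-58a-3p 946 against 70 and 42. The part of any of these in the values of replicate 3 was not tested. Tests of the arms of mir-81 and mir-82 that involve 60 min are given with and without this library. Values of other arms, and the correlations between courses, include it.

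The mir-80 hairpin gave almost no reads. miR-80-3p had 4 counts in all, all of them in 270 min replicate 2, where they made up 0.000932% of the library. In the other 23 libraries it had 0 counts. The 3 libraries of 410 min are the deepest stage, and a count of 0 there allows a share of up to 0.00012%. miR-80-5p had 13 counts in 5 libraries, with 1 count in each of 3 libraries at 60 or 120 min, 8 in 330 min replicate 3 and 2 in 500 min replicate 3. These counts are too few to place an onset for mir-80. The treatment of reads that match more than 1 place is not given in the sources used here. The split of counts between the near-identical miR-81-3p and miR-82-3p is therefore uncertain. The part of that treatment, or of the overlap with K01F9.6, in the low counts of mir-80 was not tested.

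miR-82-3p was the most abundant of the arms in every library, and miR-81-3p came after it in every library. Over the 24 libraries miR-82-3p had 1064120 counts and miR-81-3p had 422651. Ranked among all arms of its library, miR-82-3p stood between 17th and 10th at 60 min, and in 225 min replicate 3 it was the most abundant miRNA. miR-81-3p ranked between 31st and 16th at 60 min and 5th or 6th in the libraries of 410 and 500 min. The 5p arms were far rarer, with 1573 counts for miR-81-5p and 1462 for miR-82-5p. miR-81-5p had no read in 1 library, and miR-82-5p had none in 2.

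All 4 tested arms differed among the 8 stages. The adjusted p was 6.77e-09 for miR-82-3p, 2.66e-07 for miR-81-3p, 0.0048 for miR-81-5p and 0.0107 for miR-82-5p (edgeR). Differences among stages were the rule in this table, since 68.0% of all tested arms passed the same test. Without 60 min replicate 3 the 4 arms kept their calls.

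The onset fell between 120 and 180 min. miR-81-3p stood at 27389, 17162 and 25015 CPM in the 3 libraries of 180 min, against 809, 1509 and 1719.6 CPM in those of 120 min. The libraries of the stages were far apart, and the lowest at 180 min was well above the highest at 120 min. The log2 fold change was 4.11 ± 0.68 (SE, edgeR adjusted p 8.38e-05). miR-82-3p had 88361, 62706 and 59614 CPM at 180 min, against 8159.6, 4268 and 5463 CPM at 120 min. Its log2 fold change was 3.56 ± 0.51 (adjusted p 6.83e-06), again with no overlap between the stages. Together these 3p arms made up 10.9% ± 2.72 of all counts at 180 min and 0.967% ± 0.191 at 120 min (n = 3 each, SD). By p-value they were the first and second of the 128 arms in this step, miR-82-3p ahead of miR-81-3p, and by size of the rise miR-81-3p was 6th and miR-82-3p 8th.

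Of the partner strands, miR-81-5p also passed the test in this step. It stood at 527, 286 and 464 CPM at 180 min, against 0, 85.3 and 15.1 CPM at 120 min. Its log2 fold change was 3.72 ± 1.00 (edgeR adjusted p 0.0118), but it lost this call when 120 min replicate 3 was left out (adjusted p 0.0628) and without the low-count filter (0.0806). miR-82-5p had 221, 424 and 508 CPM at 180 min, against 51.9, 45.1 and 58.8 CPM at 120 min. The libraries did not overlap, yet the log2 fold change of 2.87 ± 1.05 did not pass the test (edgeR adjusted p 0.0864). It passed without 60 min replicate 2 (0.041) or 60 min replicate 3 (0.0371), in DESeq2 (0.0105) and in a fit of the 6 libraries of these stages (0.00835). In all, 3 of the 4 tested arms were called higher, where 7.81% of the 128 arms were, and the median log2 fold change of all arms was 0.13.

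Between 60 and 120 min none of the 4 tested arms passed the test (0 in edgeR and 0 in DESeq2, against 2 at an unadjusted p under 0.05, the 3p arms), where 6.25% of all arms were called in either direction. The 3p arms had log2 fold changes of -1.78 ± 0.62 (miR-81-3p, adjusted p 0.0779) and -1.29 ± 0.47 (miR-82-3p, 0.0887). The 60 min libraries of miR-81-3p stood at 1091, 766 and 11947 CPM and those of miR-82-3p at 11119.9, 4361 and 28160.1 CPM, so replicate 3 set the 60 min mean. Leaving it out gave log2 fold changes of 0.54 for miR-81-3p (adjusted p 0.546) and -0.38 for miR-82-3p (0.716). Without another 60 min library, where replicate 3 weighs more, miR-81-3p was called lower at 120 min (0.014 without replicate 1 and 0.00385 without replicate 2), as was miR-82-3p without replicate 2 (0.00605). For miR-81-5p the log2 fold change was -0.22, and -0.42 without 60 min replicate 3. For miR-82-5p it was -1.20, and 0.65 without that library, with no call either way. Both 3p arms were thus detected in every library before the onset, miR-82-3p at 0.770% ± 0.125 of counts at 120 min and 0.932% ± 0.599 at 60 min, and miR-81-3p at 0.197% ± 0.109 at 120 min and 0.276% ± 0.347 at 60 min (n = 3 each, SD).

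Set against 60 min in place of 120 min, the rise was also called. For 180 min over 60 min the log2 fold change was 2.33 ± 0.63 for miR-81-3p (edgeR adjusted p 0.00573), 2.27 ± 0.48 for miR-82-3p (0.000451) and 3.50 ± 1.01 for miR-81-5p (0.00785). Without 60 min replicate 3 it was 4.64 for miR-81-3p and 3.18 for miR-82-3p, each larger than with it, and 3.32 for miR-81-5p (adjusted p 0.0265). miR-82-5p had 67.5, 0 and 282 CPM at 60 min. The last of these lay within the range of the 180 min libraries, and the log2 fold change of 1.67 ± 1.01 did not pass the test (0.231), although it did without 60 min replicate 3 (3.53, 0.0265), with total counts as the scaling (0.0457) and in DESeq2 (0.0109). The call of miR-81-5p was lost without the low-count filter (0.0712). The share of all arms called higher in this comparison was 15.6%. It uses the same 180 min libraries as the step above and is not a separate observation of them.

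**Figure D1:**
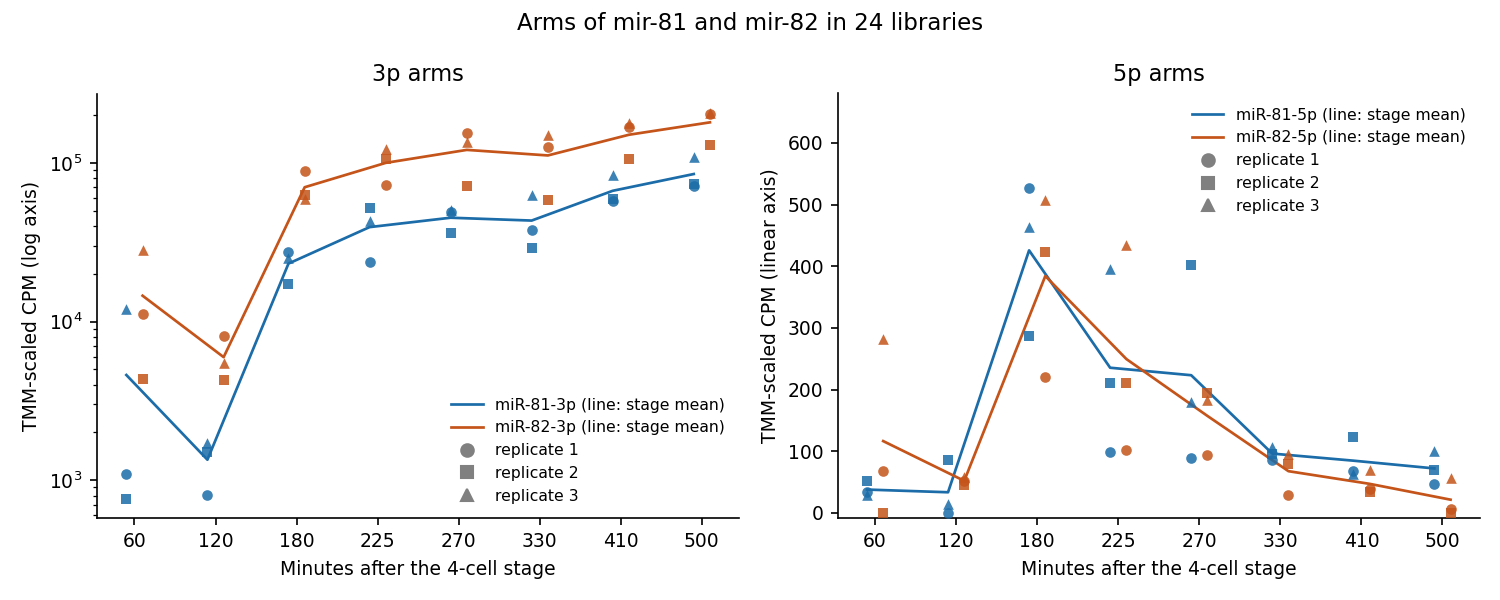
TMM-scaled CPM of the 3p arms (left, log axis) and the 5p arms (right, linear axis) of mir-81 and mir-82 against minutes after the 4-cell stage, with a point for each of the 24 libraries and a line through the mean of each stage; stages are evenly spaced on the axis. The 3p arms jump between 120 and 180 min and stay high, with miR-82-3p above miR-81-3p throughout, while the 5p arms peak at 180 min at means of 426 CPM (miR-81-5p) and 384 CPM (miR-82-5p).

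After 180 min the guides and their partner strands parted. None of the 4 arms passed the test in any of the 5 neighbouring steps from 180 to 500 min (0 calls in edgeR and 0 in DESeq2), and 0 had an unadjusted p under 0.05. The share of all arms called in these steps was 1.56% for 225 over 180 min, 3.91% for 270 over 225 min, 1.56% for 330 over 270 min, 10.9% for 410 over 330 min and 6.25% for 500 over 410 min. Over the whole span from 180 to 500 min, however, all 4 tested arms were called, the 3p arms higher, as were 25.8% of all arms, and the 5p arms lower, as were 22.7%.

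miR-81-3p stood at 71839, 73907 and 109423 CPM in the libraries of 500 min, all above the 180 min libraries given above. The log2 fold change was 1.87 ± 0.62 (edgeR adjusted p 0.0137). miR-82-3p stood at 203290, 130077 and 206892 CPM at 500 min, with a log2 fold change of 1.36 ± 0.47 (0.0172). These rises depended on the scaling. With total counts the log2 fold changes were 1.10 (0.127) and 0.56 (0.192). The median of all arms was -0.79 with total counts, -0.38 with the size factors of DESeq2 and -0.17 with TMM, so the arms stood above the median under each. The call of miR-81-3p was also lost without 180 min replicate 2 (0.0766), and that of miR-82-3p without 180 min replicate 2 (0.0537), 180 min replicate 3 (0.0603) or 500 min replicate 1 (0.0511).

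As unscaled shares the 3p arms levelled off after 225 min. The share of miR-82-3p was 8.27% ± 2.42 at 180 min, then 12.9% ± 2.73 at 225 min, then 13.7% ± 3.79 at 270 min, then 11.9% ± 3.47 at 330 min, then 11.7% ± 2.22 at 410 min and finally 12.2% ± 3.23 at 500 min (n = 3 each, SD). The share of miR-81-3p was 2.67% ± 0.413 at 180 min, then 5.03% ± 1.58 at 225 min and finally 5.72% ± 1.36 at 500 min. From 225 min on, the stage means of the combined share lay between 16.5% and 19.0%, a span smaller than the SD over libraries at 4 of these 5 stages.

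The 5p arms were highest at 180 min and low again at the end. miR-81-5p had 46.8, 69.3 and 100.2 CPM at 500 min, all below the libraries of 180 min, with a log2 fold change of -2.57 ± 0.94 (edgeR adjusted p 0.024). This call was lost without 180 min replicate 1 (0.0549), 500 min replicate 1 (0.0949) or 500 min replicate 2 (0.0712) and without the low-count filter (0.0888). miR-82-5p had 7.02, 0 and 57.2 CPM at 500 min, which rest on 3, 0 and 12 counts. Its log2 fold change was -4.14 ± 1.14 (0.00324), and -6.30 without 500 min replicate 3.

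Over the whole timecourse, 500 over 60 min, miR-81-3p had a log2 fold change of 4.20 ± 0.68 (edgeR adjusted p 6.02e-06) and miR-82-3p of 3.63 ± 0.51 (4.07e-07). Without 60 min replicate 3 these values were 6.52 and 4.54. The share of all arms called higher was 34.4%, and the share called lower 28.1%. miR-81-5p did not pass the test (0.94, adjusted p 0.399), nor did it without 60 min replicate 3 (0.75, adjusted p 0.562). miR-82-5p was called lower, with a log2 fold change of -2.47 ± 1.09 (edgeR adjusted p 0.0478). This fold change was -0.62 without 60 min replicate 3 (0.665) and -4.63 without 500 min replicate 3 (0.00668). The call was lost without any of 19 single libraries and with either other scaling. It was also lost without the low-count filter (0.210), in a fit of the 6 libraries of these stages (0.304) and in DESeq2 (0.0715).

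The share of a hairpin's counts that lie on its 5p arm needs no scaling factor, since both arms come from the same library. For mir-81 this share was 1.78% ± 0.129 at 180 min, then 0.580% ± 0.293 at 225 min, then 0.545% ± 0.486 at 270 min, then 0.241% ± 0.0802 at 330 min, then 0.134% ± 0.0679 at 410 min and finally 0.0834% ± 0.0159 at 500 min (n = 3 each, SD). The single libraries of 500 min held 0.0651%, 0.0937% and 0.0915%, and those of 180 min 1.89%, 1.64% and 1.82%. Their exact 95% intervals were far apart, at 0.172% or less for each library of 500 min and 1.23% or more for each of 180 min; intervals and floors cover counting error only. The stage mean was lower at each step from 180 to 500 min. Single libraries departed from that order, as 270 min replicate 2 did with 1.10%.

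For mir-82 the share was lower but followed the same course. It was 0.588% ± 0.306 at 180 min, then 0.232% ± 0.111 at 225 min, then 0.156% ± 0.107 at 270 min, then 0.0739% ± 0.0571 at 330 min, then 0.0313% ± 0.00793 at 410 min and finally 0.0104% ± 0.0151 at 500 min (n = 3 each, SD). In 500 min replicate 2, none of 18767 counts lay on the 5p arm, which allows a share of up to 0.016%. Over the 18 libraries from 180 to 500 min the share and time had a Pearson r of -0.748 (permutation p 0.00045) and a Spearman rho of -0.925 for mir-81, and an r of -0.707 (permutation p 0.0005) and a rho of -0.900 for mir-82. The permutation p of each rho was 1e-05, the smallest that 100000 resamples can give. Adjusted over the 6 correlations computed, the p-values of r were both 0.00075 and those of rho 3e-05. The 3 libraries of 500 min are equally far from the median time. Without any 2 of them, r was -0.755 to -0.750 for mir-81 and -0.709 to -0.698 for mir-82 (permutation p 0.00235 or lower). These correlations were computed because the stage values had been seen to fall.

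Before the onset the shares were less certain, because few counts lay on the hairpins. For mir-82 the 5p share over the libraries of 180 to 500 min was 0.182% ± 0.235 (SD, n = 18), and over those of 60 and 120 min 0.723% ± 0.410 (SD, n = 6). The difference of -0.541 percentage points had a two-sided exact permutation p of 0.00128, and it was -0.488 percentage points without 60 min replicate 3 (exact permutation p 0.00452). The smaller block had the larger SD, so these p-values can be too low as tests of the means alone. Because the share kept falling after 180 min, this difference sums over both the onset and the later course. At 180 min itself 2 of the 3 libraries, at 0.671% and 0.845%, lay within the range of the 120 min libraries, 0.632% to 1.07%. For mir-81 the 5p share was 0%, 5.35% and 0.872% in the libraries of 120 min and 3.00%, 6.25% and 0.239% in those of 60 min. The 2 highest rest on 5 of 80 counts at 60 min and 17 of 318 counts at 120 min, and no level before the onset can be set from them.

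**Figure D2:**
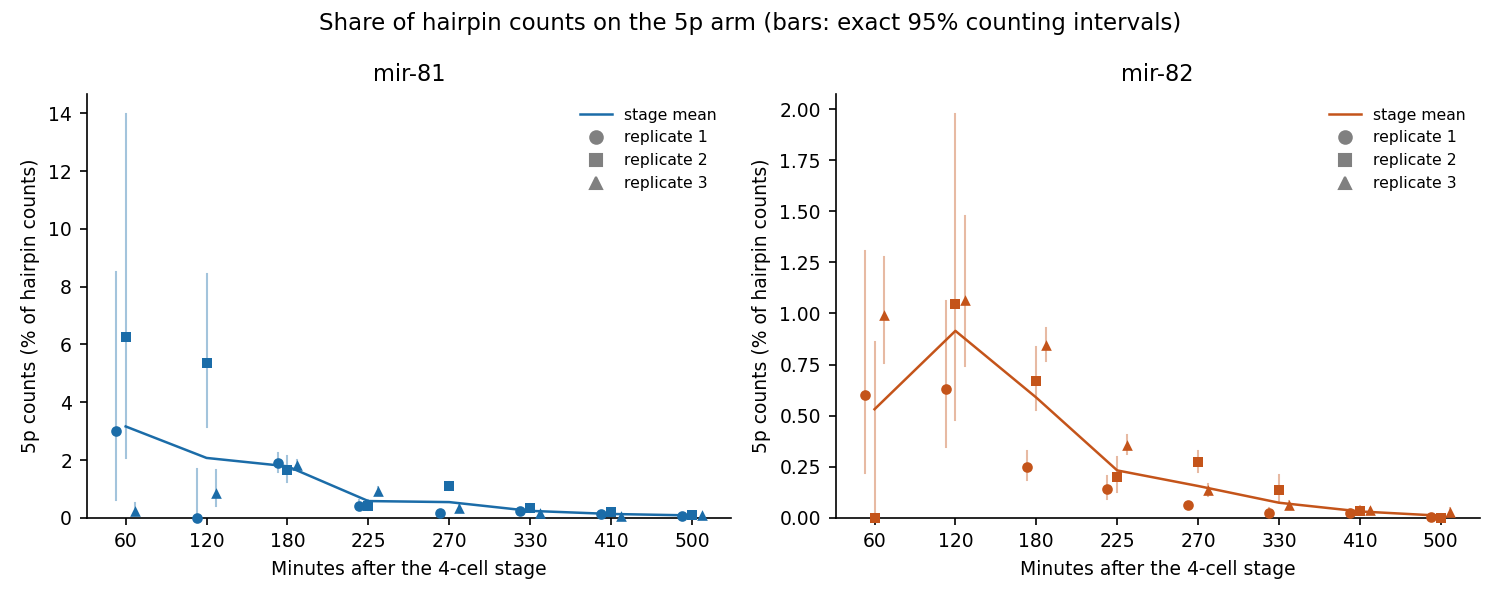
Percentage of hairpin counts on the 5p arm for mir-81 (left) and mir-82 (right) against minutes after the 4-cell stage, on linear axes of different range, with a point for each library, its exact 95% counting interval as a bar and a line through the stage means. The points fall from 180 min on, to 0.0834% (mir-81) and 0.0104% (mir-82) at 500 min, and the long bars at 60 and 120 min show how few counts lay behind those values.

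The balance between the 5p arms was not tested and rests on few counts at several stages. Summed over the 3 libraries of a stage, miR-81-5p had 14 counts and miR-82-5p 65 at 60 min, which is a ratio of 0.215. At 120 min the sums were 26 and 58, a ratio of 0.448, and at 180 min 568 and 555, a ratio of 1.02. The sums at 500 min were 51 and 15, a ratio of 3.40. The ratios at 60, 120 and 500 min depended on single libraries. Leaving out 1 library at a time gave 0.138 to 1.33 at 60 min, where replicate 3 held 59 of the 65 counts of miR-82-5p. At 120 min it gave 0.184 (without replicate 2) to 0.739 (without replicate 3). The ratio of single libraries at 180 min was 2.39, 0.675 and 0.913 in replicates 1, 2 and 3. At 500 min the sums without 1 library gave 2.58 to 10, the highest without replicate 3, which held 12 of the 15 counts of miR-82-5p.

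The ratio of the guides, miR-81-3p over miR-82-3p, compares near-identical miRNAs of equal length within a library and needs no scaling. Reads that cannot be assigned to 1 of them could move it, and how such reads were counted is not given in the sources used here. The ratio was below 1 in all 24 libraries. At 60 min it was 0.0985 in replicate 1, 0.177 in replicate 2 and 0.424 in replicate 3, and at 120 min 0.0993, 0.354 and 0.315. The exact 95% intervals of both values of replicate 1 end at 0.121 or below, and other replicates lay above them. At 180 min the ratio was 0.310, 0.274 and 0.420.

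The later libraries lay in a narrower range. In replicates 1, 2 and 3 the ratio was 0.325, 0.489 and 0.351 at 225 min, 0.314, 0.509 and 0.371 at 270 min, and 0.300, 0.499 and 0.421 at 330 min. It was 0.343, 0.559 and 0.469 at 410 min and 0.353, 0.568 and 0.529 at 500 min. At each of these 5 stages replicate 2 was highest and replicate 1 lowest, a spread between libraries that is larger than the change from stage to stage. In order of time the 8 stage means were 0.233, 0.256, 0.334, 0.389, 0.398, 0.407, 0.457 and 0.483.

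Taken over all 8 stages, the log2 ratio did not pass a permutation F-test (F = 1.82, permutation p 0.133, 100000 resamples). Without 60 min replicate 3, F was 3.53 (permutation p 0.0214). Compared in 2 blocks of time, the mean ratio was higher over 180 to 500 min than over 60 and 120 min. Its mean log2 value was -1.32 ± 0.34 over the 18 libraries of 180 to 500 min and -2.26 ± 0.93 over the 6 libraries of 60 and 120 min (SD), which correspond to ratios of 0.401 and 0.208. The difference of 0.94 on the log2 scale had a two-sided exact permutation p of 0.00247. It was 1.15 without 60 min replicate 3 (exact permutation p 0.00113). The smaller block had the larger SD, so these p-values can be too low as tests of the means alone. Because the stage mean kept rising after 180 min, this difference sums over both the onset and the later course. At 180 min itself the libraries, at 0.274 to 0.420, lay within the range of the 60 and 120 min libraries, 0.0985 to 0.424.

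The difference between the 2 blocks of time was 1.71, 0.91 and 0.21 on the log2 scale among the libraries numbered 1, 2 and 3. Among the libraries numbered 1, the ratio was 0.300 to 0.353 from 180 to 500 min and 0.0985 to 0.0993 before. Among those numbered 2 it was 0.274 to 0.568 and 0.177 to 0.354, and among those numbered 3 it was 0.351 to 0.529 and 0.315 to 0.424, both with overlap. From 180 to 500 min the ratio was higher at later times, with a Pearson r of 0.488 (permutation p 0.0401) and a Spearman rho of 0.530 (permutation p 0.0263) over 18 libraries, and adjusted p-values of 0.0401 and 0.0316 over the 6 correlations. Of the 3 libraries of 500 min, which are equally far from the median time, leaving out replicates 1 and 2 gave an r of 0.518 (permutation p 0.0407) and leaving out replicates 1 and 3 an r of 0.545 (0.0295). Without replicates 2 and 3 it was 0.290 (permutation p 0.276), so the correlation depended on which libraries of 500 min were kept. That setting kept only replicate 1 at 500 min, the number with the lowest ratio at each stage from 225 min on. Within each number the ratio was higher at 500 than at 180 min, at 0.353 and 0.310, 0.568 and 0.274, and 0.529 and 0.420. The call of the ratio with time was also lost without any of 10 single libraries, with p up to 0.113 without 500 min replicate 2. The 10 were replicates 1 and 2 of 180 min, replicates 1 and 3 of 225 and of 270 min, and replicates 2 and 3 of 410 and of 500 min.

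**Figure D3:**
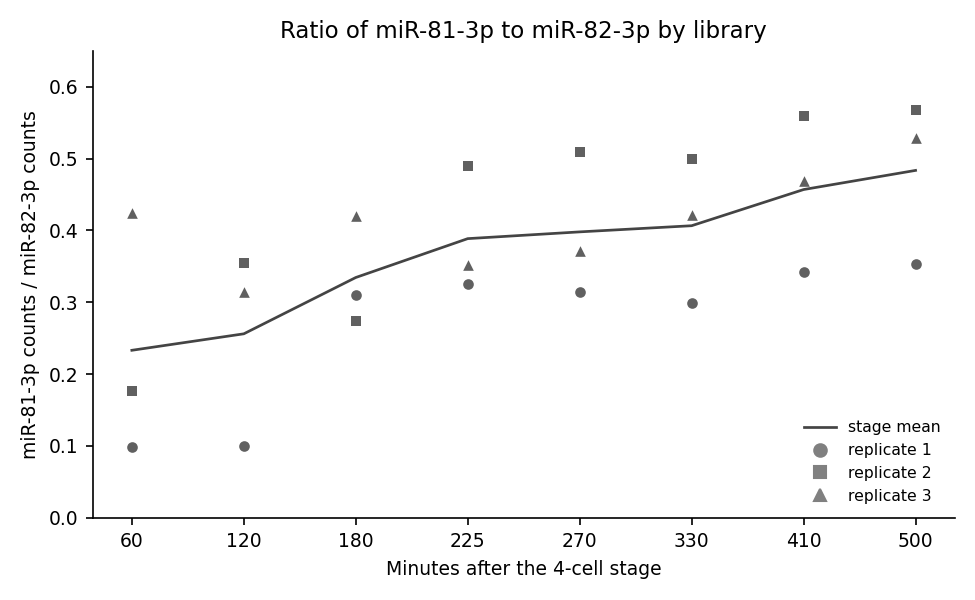
Counts of miR-81-3p divided by counts of miR-82-3p in each of the 24 libraries against minutes after the 4-cell stage, with the replicate numbers as symbols and a line through the stage means. The ratio stays below 1 throughout, the stage mean is 0.483 at 500 min and 0.233 at 60 min, and replicate 2 is highest and replicate 1 lowest at each stage from 225 min on.

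The other hairpins of the bantam family gave 4 tested arms. mir-1834 was not analysed here, and the arms of mir-58b, mir-2209b and mir-2209c had 54 counts or fewer each. miR-58a-3p, the sister guide, had 143786 counts, fewer than miR-81-3p or miR-82-3p. It stood at 7210.1 ± 412 CPM at 180 min and 1510.0 ± 329 CPM at 120 min (n = 3 each, SD), a log2 fold change of 2.25 ± 0.55 (edgeR adjusted p 0.00532). At 500 min it was higher than at 180 min by 2.29 ± 0.55 on the log2 scale (0.000966). miR-58a-5p, its partner strand, had 59125 counts and was called in neither of these comparisons, with log2 fold changes of 0.70 (0.513) for 180 over 120 min and 0.44 (0.542) for 500 over 180 min.

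miR-2209a-3p did not follow the course of the other 3p arms. It stood at 109 ± 46.6 CPM at 500 min and 1071 ± 236 CPM at 60 min (n = 3 each, SD), a log2 fold change of -3.32 ± 0.75 (edgeR adjusted p 0.000345), with no call between 120 and 180 min (0.16, 0.917). miR-58b-5p, with 54 counts, was called in no comparison. Of the 4 tested arms of these other hairpins, miR-58a-3p alone was called higher at 180 min than at 120 min, where 7.81% of all arms were.

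The course of each 3p arm was compared with all tested arms outside the 3 hairpins over the 8 stage means of log2(CPM + 1). Between miR-82-3p and miR-81-3p themselves the Pearson r was 0.998. The arm most like both was miR-58a-3p, with an r of 0.972 to miR-81-3p and 0.959 to miR-82-3p. The next 4 were the same for both, and their r lay between 0.915 and 0.921 for miR-81-3p and between 0.902 and 0.908 for miR-82-3p. They were miR-1-3p, from a muscle miRNA, miR-51-5p, from the worm's relatives of miR-100, miR-49-5p and miR-228-5p. The median over the other arms was 0.334 for miR-81-3p and 0.329 for miR-82-3p. These correlations have 8 points that share libraries and scaling factors, and they are given as a description.

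Levels among these arms differed widely. By the geometric mean over the libraries, miR-228-5p had 238242 CPM at 500 min and 16504 CPM at 180 min. It was the only one of the 4 that was called higher in the onset step, with a log2 fold change of 2.80 ± 0.52 (edgeR adjusted p 0.000299). miR-1-3p had 5.72 CPM at 180 min and was listed with 0 counts at 60 and 120 min. Its log2 fold change of 5.02 ± 2.37 for 180 over 120 min was not called (edgeR adjusted p 0.222). miR-51-5p had 44.9 CPM and miR-49-5p 322 CPM at 180 min, and neither passed the test in that step (0.842 and 0.243). miR-51-5p also did not pass the test among the 8 stages (edgeR adjusted p 0.846). It had 4, 0 and 0 counts in replicates 1, 2 and 3 of 60 min, so its course rests partly on few counts. The 5p arms were less alike, with an r of 0.624 between miR-81-5p and miR-82-5p.

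**Figure D4:**
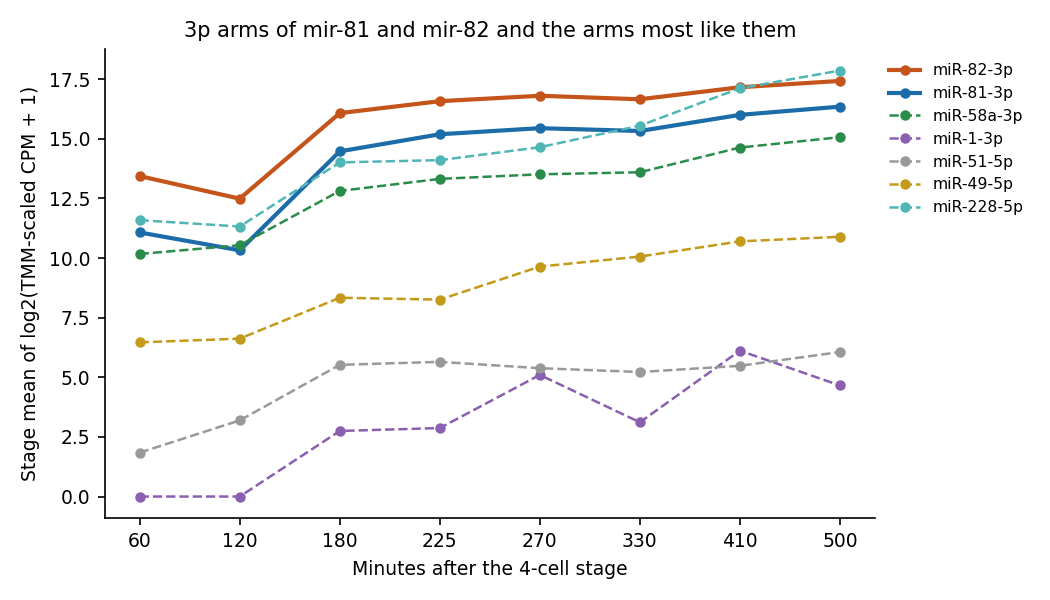
Stage means of log2(TMM-scaled CPM + 1) over the 8 stages for miR-82-3p and miR-81-3p (solid lines) and the 5 arms whose course was most like theirs (dashed lines), against minutes after the 4-cell stage. miR-58a-3p runs below miR-82-3p throughout (r of 0.959) and below miR-81-3p at every stage but 120 min (r of 0.972). miR-228-5p starts below miR-82-3p and ends above it.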

How the data were processed

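Small RNA from C. elegans embryos at 8 stages was sequenced in 24 libraries, 3 per stage, with an Illumina TruSeq small RNA kit, per the labels' protocols. What the authors deposited is a single table of counts per mature miRNA arm, whole numbers with no normalization. Bowtie and HTSeq are named in the submitters' processing notes. Their versions, the genome build, the use of strand and the handling of reads with several matches were not given in the sources used. No molecular identifiers are described, so reads are not independent molecules. The stage and replicate number of each library come from the labels.

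Counts were analysed with edgeR 4.0.16 in R 4.3.3: filterByExpr with a minimum count of 10 and stage as the group, TMM scaling, a robust quasi-likelihood fit of stage over all 24 libraries, and Benjamini-Hochberg adjustment over 128 arms. Dispersion corresponded to a biological coefficient of variation of 0.706. SE values are the log2 fold change over the root of F. Ratios used a pseudocount of 0.5, and permutation tests, computed with NumPy 2.4.6, were two-sided except the F-test; those of r, rho and F used 100000 resamples. Intervals are Clopper-Pearson at 95%, from SciPy 1.17.1, and a count of 0 was taken to allow 3 counts. Alternatives were DESeq2 1.42.0 and its size factors, total counts, no filter, the replicate number as a block, fits of 6 libraries, other pseudocounts, at least 100 counts on the hairpin and leaving out each library with arms and TMM factors kept. The fits and tests were tested on simulated data. Positions are from the Ensembl 115 annotation of WBcel235, matched by name. Named were all arms of the 3 hairpins, the other bantam-family hairpins, and the 5 arms most correlated with each 3p arm; members and lists were chosen with earlier results of these data known.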

Additional observations from a re-analysis of the deposited data

How the results depend on the processing

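The rise of the 3p arms between 120 and 180 min kept its direction and its call under every alternative run, as did that of 180 over 60 min; leaving out single libraries gave log2 fold changes of 3.84 to 4.32 (miR-81-3p) and 3.36 to 3.85 (miR-82-3p) for the first, and 1.83 to 4.64 and 1.84 to 3.18 for the second. Between 60 and 180 min the median log2 fold change of all arms was 0.44 with total counts, 0.26 with the size factors of DESeq2 and 0.00 with TMM. Of the 4 arms called for 500 over 180 min, 2 were left with total counts, and 2 to 4 without single libraries. For 120 over 60 min, 0 to 2 arms were called without single libraries. Without single libraries the F of the ratio among stages ran from 1.34 to 3.53 and the r of the ratio with time from 0.400 to 0.597; leaving out pairs of the 500 min libraries, an alternative chosen after seeing the data, gave 0.290 to 0.545.

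The labels' replicate numbers do not say what they mark. Same-numbered libraries of different stages had deviations from their stage means with correlations of -0.136 to 0.463 (median 0.094), and 40 of 84 pairs were over 0.1. For 21 of 24 libraries the mean correlation with libraries of other stages was highest for their own number. This is a hint from the data and not from the design. With the replicate number as a block, F of the ratio among the stages was 1.82 with a permutation p of 0.0218, and the ratio and time had a partial r of 0.670 (permutation p 0.00091); no arm gained or lost a call.

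Signs that turned belonged to differences without a call, and the cause was not tested. For miR-81-5p in 120 over 60 min these were 0.77 with total counts, 0.481 with DESeq2's size factors and 0.484 with DESeq2, and for 270 over 225 min 0.055 without the filter; miR-82-3p in 410 over 330 min had -0.019 with total counts. Without single libraries, log2 fold changes for 120 over 60 min ran from -2.28 to 0.54 (miR-81-3p), -2.08 to 0.37 (miR-81-5p) and -1.76 to 0.65 (miR-82-5p). Those for 270 over 225 min ran from -0.065 to 0.44 (miR-81-3p), -0.82 to 0.54 (miR-81-5p) and -1.05 to 0.014 (miR-82-5p), for 330 over 270 min from -0.43 to 0.16 (miR-81-3p) and -0.39 to 0.19 (miR-82-3p), and for 500 over 410 min from -0.55 to 0.14 (miR-81-5p). With 4 and 13 counts in all, miR-80-3p and miR-80-5p were too rare to test.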
